A study of Homo sapiens with 12 samples.

Results

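The genes described here are 48 heat shock proteins and cytosolic chaperones, with the factors that help them, followed through 12 Affymetrix arrays of HK-2 cells. HK-2 is an established human cell line, immortalised from the epithelium of the kidney's proximal tubule. They were kept in a defined medium with EGF, hydrocortisone, insulin, transferrin and selenite and were treated near confluence with a compound the labels call Di or with its vehicle. The 4 groups were control at 12 h, Di at 12 h, control at 48 h and Di at 48 h, with 3 biological replicates each (n = 3 for every group value). What Di is, at which dose it was given and what the vehicle was are not given in the sources used here.

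The members were listed by name, and each gene was read from 1 probe set, the brightest over the 12 arrays, avoiding those marked for cross-hybridisation where another existed. Probe sets annotated to both HSPA1A and HSPA1B were counted once, which left 47 entries. Of these, 41 passed a level filter (a log2 value over 4 in at least 3 of the 12 arrays) and were tested among 10627 genes. DNAJA4 and DNAJB5 did not pass, with no array over 4 and highest values of 3.48 and 3.07. AHSA1 and HSF2 had no probe set named for them in the annotation used and were not analysed here. HSPA8 and TCP1 were named only on probe sets also annotated to small nucleolar RNAs, so they are described apart and enter no counts except those for promoters. All values are log2 expression, and a gene was called when its adjusted p lay under 0.05 over all genes tested. Calls of a gene's other probe sets came from a separate fit of 18966 kept probe sets, with p-values adjusted over these. The 41 are not all members, and the counts below describe those that passed the filter.

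Some measures of the arrays and cells stand beside the results. Within groups, arrays correlated at 0.986 to 0.996. Distances of arrays from their group means, as root mean squares over all genes, were 0.111 to 0.182 except for Di at 12 h, replicate 2, at 0.252. The gap between 3′ and 5′ actin probe sets, a measure of RNA integrity, was 1.22 ± 0.239 (SD) in Di and 1.71 ± 0.178 in control at 12 h (exact permutation test, two-sided, p = 0.1, which is the smallest value that 3 against 3 arrays can give). None of the proximal tubule markers with a named probe set was detected, while all 5 epithelial markers were. Of the markers of other nephron segments only AQP2 was detected, at 4.89 to 5.37 over the 12 arrays. The summed log2 level of the epithelial markers was 55.1 to 55.5 in control and 51.8 to 52.8 in Di at 48 h. They did not move together: KRT19, CDH1 and EPCAM were called lower in Di at 48 h (-1.19, -1.33 and -0.65), KRT18 was called higher (0.20) and KRT8 was not called (0.13). Of 6 fibroblast markers COL1A1, DCN and LUM were detected. Their sum was 24.95 to 25.39 in control and 22.5 to 23.8 in Di at 48 h. DCN and LUM were called lower in Di at 48 h (-1.01 and -0.72), and COL1A1 was not called (-0.16). None of the endothelial or leukocyte markers with a named probe set was detected. The part of these measures in the chaperone results was not tested. In RNA from whole cultures, more cells expressing a gene and more RNA per cell cannot be told apart.

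Chaperones bind unfolded stretches of other proteins and help them fold, refold or move on to degradation. HSP70 proteins cycle between ATP and ADP states, J proteins start that cycle by stimulating ATP hydrolysis, and BAG and HSP110 proteins release the nucleotide. HSP90 takes up clients from HSP70 with the help of cochaperones. The transcription factor HSF1 is held inactive in unstressed cells, and when unfolded or oxidised proteins accumulate it binds heat shock elements and raises transcription of the inducible members. In the proximal tubule these genes are known for their response to ischaemia and to toxic injury.

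At 12 h few of these genes differed between Di and control, and at 48 h most of them did. The inducible HSP70 genes HSPA1A/HSPA1B were 6.15-fold higher in Di at 48 h, DNAJB4 3.95-fold, HSPH1 3.93-fold, BAG3 3.47-fold and DNAJB1 2.88-fold. The cytosolic HSP90 genes and 3 of 4 tested subunits of the CCT chaperonin rose by smaller amounts, and HSPB1, a small heat shock protein often induced with them, was not called. By limma, 2 of the 41 entries were called higher and 0 lower at 12 h, where 3.9% of all genes tested were called higher and 9.78% lower (13.7% in either direction). At an unadjusted p under 0.05, 5 entries were higher and 0 lower at 12 h. The share of all genes at that threshold was not computed, so this count has no background here. At 48 h, 27 were called higher and 5 lower, where 22.9% of all genes were called higher and 28% lower (51% in either direction). The median change of the 41 was 0.059 at 12 h and 0.521 at 48 h, beside -0.061 and -0.019 over all genes tested. At 48 h the 3 Di values lay above the 3 control values in 29 entries and below them in 7, where this held for 28.6% and 33% of all genes. At 12 h they lay above in 4 entries (HSPA1A/HSPA1B, DNAJA1, BAG2 and PTGES3) and below in 2 (HSPA2 and BAG4), where this held for 11.2% and 23.6% of all genes.

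**Figure D1:**
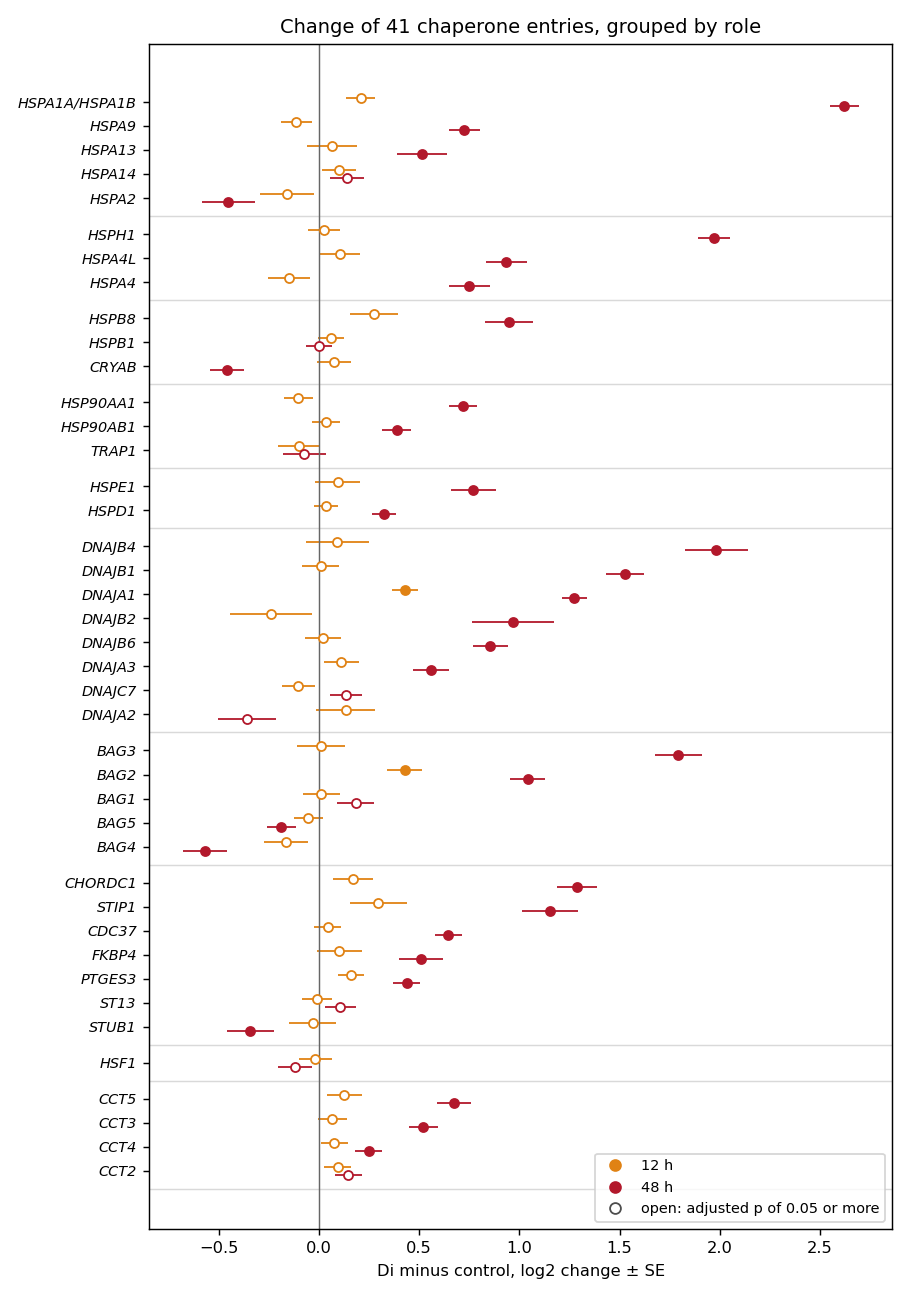
Log2 change, Di minus control, of the 41 entries at 12 h (orange) and 48 h (red), with the standard error of the fit, grouped by role; open points had an adjusted p of 0.05 or more. Filled orange points are DNAJA1 and BAG2 alone, whereas 27 of the red points are filled to the right of 0 and 5 to the left.

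**Figure D2:**
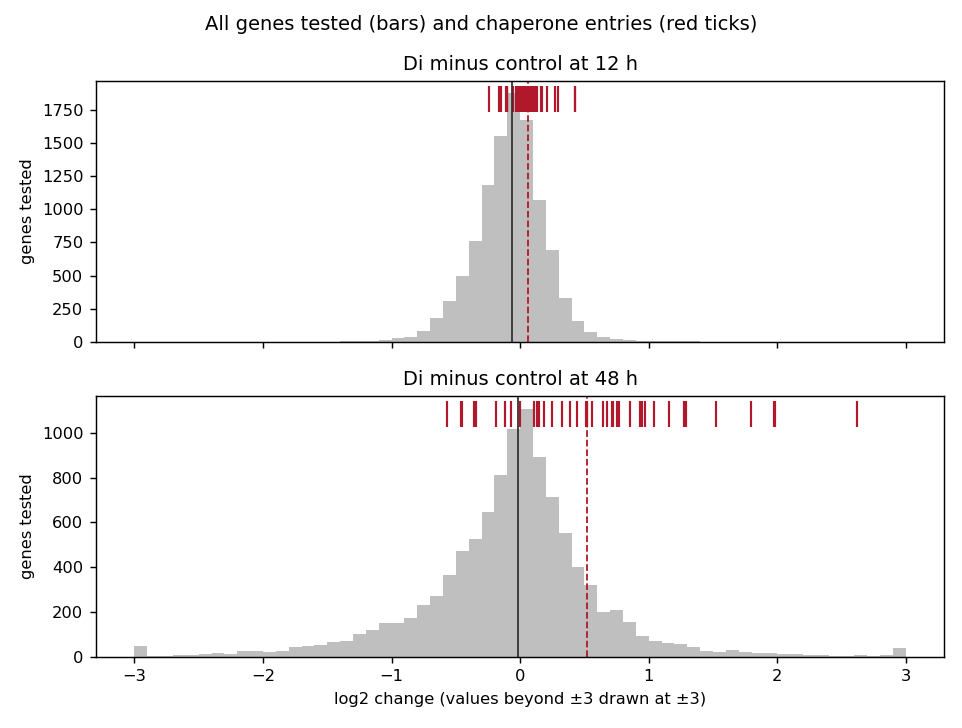
Distribution of the log2 change of all 10627 genes tested (grey bars) at 12 h (top) and 48 h (bottom), with the 41 chaperone entries as red ticks, the median of all genes as a solid line and that of the entries as a dashed line. The medians lie at -0.061 and 0.059 at 12 h and at -0.019 and 0.521 at 48 h.

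The inducible HSP70 genes HSPA1A and HSPA1B encode the cytosolic HSP70 that a heat shock raises. Their shared probe set read 12.09, 12.22 and 12.11 in control at 12 h and 12.45, 12.24 and 12.37 in Di at 12 h. It read 11.11, 11.09 and 11.08 in control at 48 h and 13.73, 13.78 and 13.64 in Di at 48 h. The Di values lay above the controls without overlap at both times, by a small margin at 12 h and a wide one at 48 h. The change was 2.62 ± 0.0724 (SE) at 48 h (adjusted p = 2.95e-10) and 0.21 ± 0.0724 at 12 h (adjusted p = 0.0801). The 12 h value passed the threshold without replicate 2 of Di at 12 h (adjusted p = 0.0355). Another probe set annotated to both genes gave 2.87 at 48 h.

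The constitutive HSC70, HSPA8, folds proteins in unstressed cells. The probe set annotated to HSPA8 and to the small nucleolar RNAs SNORD14C and SNORD14D, brought into the fit after the data were seen, read 13.21, 13.12 and 13.18 in control at 12 h and 13.43, 13.54 and 13.52 in Di at 12 h. It read 12.86, 12.90 and 12.87 in control at 48 h and 13.31, 13.26 and 13.43 in Di at 48 h. Both Di groups lay above their controls without overlap. The change was 0.32 ± 0.0668 at 12 h (adjusted p = 0.011) and 0.46 ± 0.0668 at 48 h (adjusted p = 0.000151). At 12 h the 3 other probe sets annotated to HSPA8 gave 0.15, 0.08 and 0.0023 and were not called, and at 48 h all 3 were called higher (0.30 to 0.42).

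The other HSP70 genes did not move as a block. HSPA9, the mitochondrial HSP70, rose by 0.73 ± 0.0779 at 48 h (adjusted p = 1.43e-05), and HSPA13, an HSP70-like ATPase of microsomes, by 0.52 ± 0.125 (adjusted p = 0.00488). HSPA2, the member best known from spermatogenesis, was lower in Di at 48 h (-0.45 ± 0.134, adjusted p = 0.0151), with Di values of 7.14, 6.54 and 6.87 below controls of 7.25, 7.18 and 7.46. Without replicate 2 of Di at 48 h its adjusted p was 0.0546 (change -0.30). Without replicate 3 of control at 48 h it was 0.0617. HSPA14, a ribosome-associated HSP70, stood at 0.14 (adjusted p = 0.19).

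The 3 HSP110 genes, nucleotide exchange factors that work with HSP70 to dissolve aggregates, were all called higher at 48 h. HSPH1, the inducible one, read 9.89, 9.90 and 9.97 in control at 48 h and 12.00, 11.96 and 11.72 in Di at 48 h. At 12 h its values were 10.58, 10.75 and 10.67 in control and 10.70, 10.67 and 10.69 in Di, which overlap. Its change was 1.97 ± 0.0801 at 48 h (adjusted p = 6.52e-09) and 0.03 ± 0.0801 at 12 h (adjusted p = 0.863). HSPA4L rose by 0.93 ± 0.102 and HSPA4 by 0.75 ± 0.103 at 48 h. The probe sets of HSPA4 went different ways at 48 h, since 1 of the 3 others was called lower (-1.02) and the remaining pair, marked for cross-hybridisation, were called higher (0.73 and 1.04).

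Among the J proteins, 6 of 8 tested were called higher at 48 h and 0 lower. DNAJB1, the HSP40 that partners inducible HSP70, read 9.27, 9.31 and 9.38 in control at 48 h and 11.00, 10.92 and 10.61 in Di at 48 h. At 12 h it read 9.41, 9.43 and 9.41 in control and 9.40, 9.39 and 9.50 in Di. It rose by 1.53 ± 0.0932 at 48 h (adjusted p = 1.55e-07), with no difference beyond the spread at 12 h (0.0092 ± 0.0932, adjusted p = 0.961). DNAJB4, a relative of DNAJB1, rose from 8.60, 8.51 and 8.37 in control to 10.36, 10.73 and 10.33 in Di at 48 h. Its change was 1.98 ± 0.157 (adjusted p = 1.25e-06), and no Di value came within the range of the controls. At 12 h DNAJB4 read 8.43, 8.42 and 8.29 in control and 8.61, 8.09 and 8.71 in Di, and its other probe set was called higher there (0.67, adjusted p = 0.00136).

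DNAJA1, a farnesylated J protein that serves HSC70, was the entry with the smallest adjusted p at 12 h. It read 11.83, 11.75 and 11.87 in control at 12 h and 12.27, 12.18 and 12.28 in Di at 12 h, without overlap. At 48 h it read 11.32, 11.30 and 11.38 in control and 12.64, 12.63 and 12.56 in Di. The changes were 0.43 ± 0.0631 (1.35-fold, adjusted p = 0.00263) and 1.27 ± 0.0631 (2.42-fold, adjusted p = 3.07e-08). Of the remaining J proteins, DNAJB2, DNAJB6 and the mitochondrial DNAJA3 rose at 48 h (0.97, 0.86 and 0.56). DNAJB2 lay near the floor of 4, with 5.20, 5.14 and 4.76 in control and 6.10, 6.21 and 5.70 in Di at 48 h. It was not tested with a floor of 6. DNAJC7 (0.13) and DNAJA2 (-0.36) were not called. The 3 Di values of DNAJA2 at 48 h lay below its controls, and its adjusted p of 0.06 fell under the threshold in 7 alternatives.

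BAG proteins release nucleotide from HSP70 through a shared domain and differ in the rest. BAG3, which directs HSP70 clients to autophagy and is an HSF1 target, read 8.13, 8.08 and 8.22 in control at 48 h and 10.11, 10.04 and 9.66 in Di at 48 h. At 12 h it read 8.87, 9.09 and 9.05 in control and 9.00, 9.14 and 8.90 in Di, so the 12 h groups overlap. It rose by 1.79 ± 0.118 at 48 h (adjusted p = 2.88e-07). BAG2, which inhibits the ubiquitin ligase CHIP, was the other entry called at 12 h. Its values there were 10.19, 10.22 and 10.06 in control and 10.65, 10.47 and 10.62 in Di (0.43 ± 0.0859, adjusted p = 0.0102). At 48 h they were 10.03, 9.80 and 10.01 in control and 10.93, 11.08 and 10.96 in Di (1.04 ± 0.0859, adjusted p = 1.8e-06). The Di values of BAG2 lay above the controls at both times. With the mean of its 2 kept probe sets its 12 h change was 0.27 (adjusted p = 0.0847).

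The other BAG genes went the opposite way or stayed. BAG4, a silencer of death receptors, fell by 0.57 ± 0.109 at 48 h (adjusted p = 0.00115), and its other kept probe set fell too (-1.27). BAG5 stood at -0.19 ± 0.0722 (adjusted p = 0.0494), a call that ended in 13 alternatives, with adjusted p-values up to 0.28. BAG1 stood at 0.18 (adjusted p = 0.121).

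The 2 cytosolic HSP90 genes were both called higher at 48 h and the mitochondrial one was not. HSP90AA1, the stress-responsive cytosolic HSP90, read 14.53, 14.70 and 14.52 in control at 12 h and 14.54, 14.41 and 14.49 in Di at 12 h. It read 13.90, 13.90 and 13.79 in control at 48 h and 14.59, 14.58 and 14.58 in Di at 48 h. The 48 h groups did not overlap, and the Di values there lay within the range of control at 12 h. The change at 48 h was 0.72 ± 0.0706 (adjusted p = 7.15e-06), and its 3 other probe sets gave 0.91 to 1.18. HSP90AB1, the constitutive form, read 12.48, 12.54 and 12.60 in control and 13.02, 12.88 and 12.88 in Di at 48 h (0.39 ± 0.0712, adjusted p = 0.000828). At 12 h it read 12.74, 12.73 and 12.78 in control and 12.78, 12.88 and 12.70 in Di (adjusted p = 0.782). TRAP1, the mitochondrial HSP90, stood at -0.07 ± 0.106 (adjusted p = 0.606).

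Cochaperones that load or regulate HSP90 and HSP70 had 5 of 7 tested entries called higher at 48 h and 1 lower. CHORDC1, an HSP90 cochaperone of the CHORD family, read 9.73, 9.77 and 9.72 in control and 11.03, 11.12 and 10.92 in Di at 48 h (1.29 ± 0.101, adjusted p = 1.16e-06). At 12 h it read 9.90, 9.95 and 9.87 in control and 10.31, 9.88 and 10.03 in Di, which overlap. STIP1, also called HOP, bridges HSP70 and HSP90. It read 9.43, 9.50 and 9.60 in control and 10.74, 10.71 and 10.54 in Di at 48 h (1.16 ± 0.14, adjusted p = 3.7e-05). At 12 h STIP1 read 9.83, 9.97 and 10.04 in control and 9.99, 10.62 and 10.12 in Di, where replicate 2 of Di lay above the other arrays (adjusted p = 0.178). CDC37, which brings kinases to HSP90, rose by 0.65, the immunophilin FKBP4 by 0.51 and PTGES3, the cochaperone p23, by 0.44. STUB1, the ubiquitin ligase CHIP, was lower by 0.34 ± 0.117 (adjusted p = 0.03), a call lost in 8 alternatives. ST13, an HSP70-interacting protein, stood at 0.11 (adjusted p = 0.266).

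**Figure D3:**
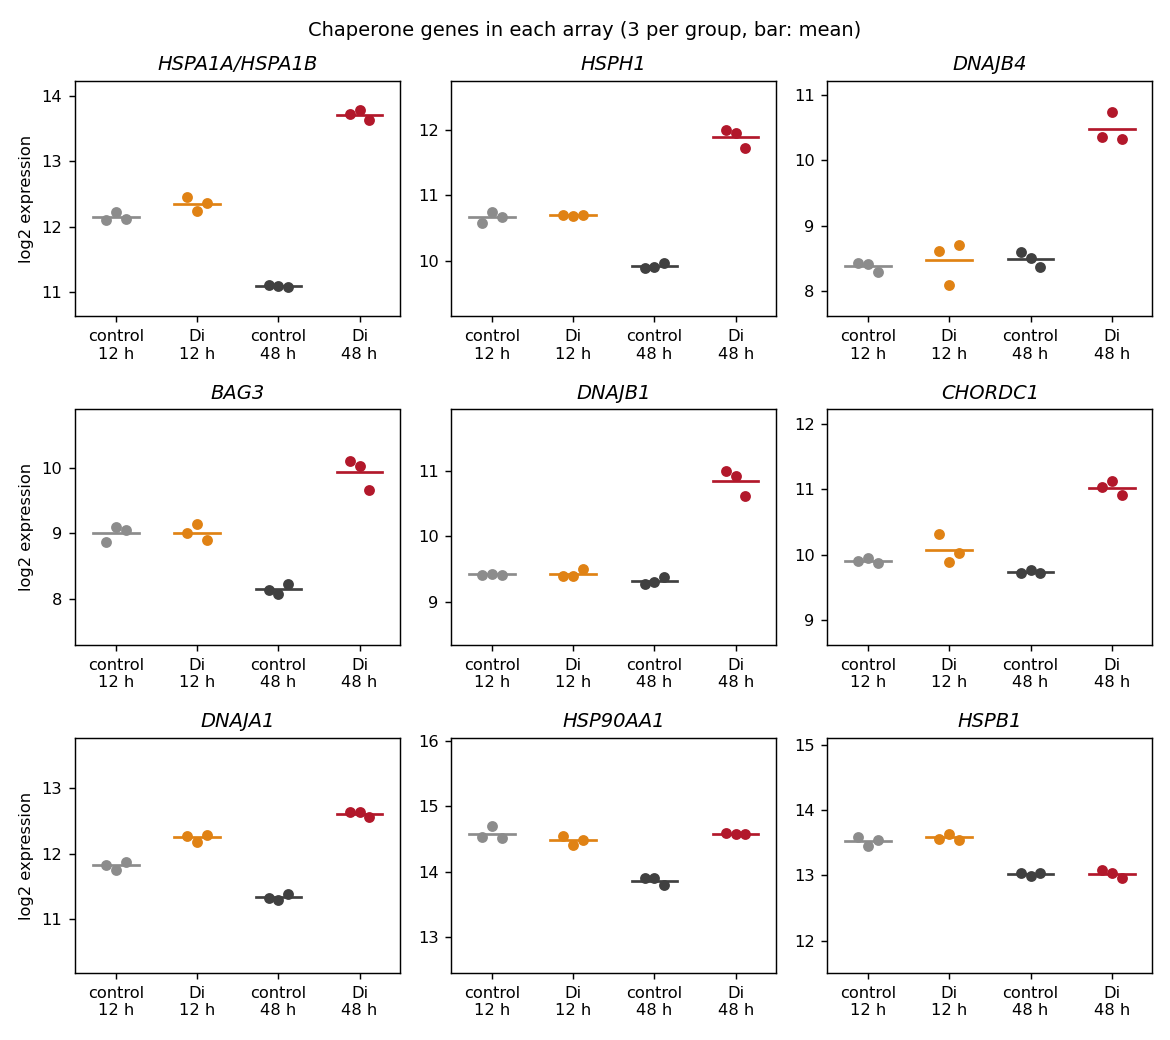
Log2 expression of 9 entries in each array, with 3 points and a mean bar per group; every panel spans the same number of log2 units. Di at 48 h lies above all other groups for the first 7 panels, within the range of control at 12 h for HSP90AA1 and overlapping control at 48 h for HSPB1.

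The small heat shock proteins, which hold unfolded proteins without ATP, split. HSPB8, the partner of BAG3, rose by 0.95 ± 0.119 at 48 h (adjusted p = 4.96e-05), from 9.68, 9.68 and 9.77 to 10.65, 10.75 and 10.59. HSPB1, or HSP27, read 13.05, 12.99 and 13.04 in control at 48 h and 13.08, 13.04 and 12.96 in Di at 48 h. Its groups overlap, and the change was 0.00025 ± 0.0642 (adjusted p = 0.998). At 12 h HSPB1 read 13.58, 13.45 and 13.54 in control and 13.56, 13.64 and 13.54 in Di (adjusted p = 0.586). CRYAB, the small heat shock protein alpha-B crystallin, went down from 10.72, 10.76 and 10.93 in control to 10.42, 10.31 and 10.29 in Di at 48 h. Its change was -0.46 ± 0.0841 (adjusted p = 0.000803), without overlap.

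Chaperonins are closed chambers that take up a whole protein. HSPD1 and HSPE1, the mitochondrial chaperonin and its lid, rose by 0.33 ± 0.0591 and 0.77 ± 0.111 at 48 h (adjusted p = 0.00076 and 0.00014). Of the cytosolic CCT subunits, which fold actin and tubulin, CCT5 rose by 0.67, CCT3 by 0.52 and CCT4 by 0.25, and CCT2 stood at 0.15 (adjusted p = 0.0915). The 3 Di values of all 4 subunits lay above the controls at 48 h. With quantile normalisation CCT4 stood at 0.17 (adjusted p = 0.0749). The probe set annotated to TCP1, another CCT subunit, and to SNORA29 gave 0.71 ± 0.0714 (adjusted p = 8.66e-06), while its other 2 probe sets gave 0.27 and 0.09 and were not called.

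HSF1, the factor that drives the inducible genes, is controlled mainly through the protein. Its mRNA read 6.00, 5.87 and 5.89 in control at 48 h and 5.78, 5.78 and 5.85 in Di at 48 h. The Di values lay below the controls, and the change of -0.12 ± 0.0837 did not pass (adjusted p = 0.262). At 12 h it read 5.76, 5.59 and 5.70 in control and 5.74, 5.50 and 5.76 in Di (adjusted p = 0.915).

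Promoters of some members hold runs of letters that match the heat shock element, in cores of 2 or 3 units defined below. Stretches of 7 are shown because they cover genes with large, moderate and no change at 48 h. Those of HSPA1A, HSPA1B, DNAJB1 and HSPB1 hold 2-unit cores only. RefSeq windows of 300 bases (250 before to 50 after each transcript start, GRCh38.p14) matched 41 of the 48 listed genes. BAG4, CRYAB, FKBP4, HSF1, HSPA14, ST13 and STUB1 had none. Each line gives a stretch before the start, 5′ to 3′ on the gene's strand, with the heat shock element cores in capitals:
HSPA1A: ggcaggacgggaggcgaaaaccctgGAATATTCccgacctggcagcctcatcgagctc
HSPA1B: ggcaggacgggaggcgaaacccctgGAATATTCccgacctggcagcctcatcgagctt
DNAJB1: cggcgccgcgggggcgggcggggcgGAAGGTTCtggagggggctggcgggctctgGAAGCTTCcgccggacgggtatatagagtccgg
CHORDC1: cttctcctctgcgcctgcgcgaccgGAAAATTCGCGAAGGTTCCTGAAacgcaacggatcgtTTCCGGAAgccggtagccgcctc
HSP90AA1: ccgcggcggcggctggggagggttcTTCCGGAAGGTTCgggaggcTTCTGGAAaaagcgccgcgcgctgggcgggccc
HSPA8: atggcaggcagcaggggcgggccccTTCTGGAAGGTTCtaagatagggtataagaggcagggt
HSPB1: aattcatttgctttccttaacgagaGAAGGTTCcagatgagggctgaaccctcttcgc

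The stretches lie at chr6:31815412-31815469 (HSPA1A, plus strand), chr6:31827608-31827665 (HSPA1B, plus), chr19:14518412-14518499 (DNAJB1, minus) and chr11:90223050-90223134 (CHORDC1, minus). The others lie at chr14:102087080-102087157 (HSP90AA1, minus), chr11:123062154-123062216 (HSPA8, minus) and chr7:76302466-76302523 (HSPB1, plus). The HSPA1A and HSPA1B stretches differ at 2 of 58 bases. A core of 3 units (GAANNTTCNNGAA or TTCNNGAANNTTC, searched on both strands) stood in 7 of the 41 members with a window (17.1%), beside 166 of 27305 genes (0.608%). A core of 2 units (GAANNTTC or TTCNNGAA, both strands, contained in every 3-unit core) stood in 21 members (51.2%), beside 16.2% of all genes. The core of the antioxidant response element that NRF2 binds, TGACNNNGC on either strand, stood in 9 members (22%), beside 16.1% of all genes. A match is a run of letters and not a measured binding site.

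The 7 genes with a 3-unit core were CHORDC1, DNAJA1, DNAJB6, HSP90AA1, HSP90AB1, HSPA8 and HSPD1. All 7 were called higher at 48 h, by 0.33 to 1.29 (HSPA8 in the fit that includes it). Of all genes tested, 22.9% were called higher and 28% lower. The median change was 0.72 with the core and 0.67 for measured entries with a window and no such core. How genes outside the list with a 3-unit core changed was not examined. Of the 29 measured entries with a window and no such core, 21 were called higher (TCP1 in the fit that includes it) and 2 lower. The largest changes, including HSPA1A/HSPA1B and DNAJB1 with 2-unit cores, were among these 29. HSPH1 and BAG3 rose 3.93-fold and 3.47-fold with neither core in the window. HSPB1 holds a 2-unit core and was not called at 48 h.

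The controls alone changed between 12 h and 48 h. Control at 48 h was lower than control at 12 h for 21 of the 41 entries and higher for 6, where 31% of all genes tested were called lower and 21.9% higher (52.9% in all). The 3 values at 48 h lay below the 3 at 12 h in 25 entries and above them in 9, where this held for 37.5% and 27.7% of all genes. Of these 27 calls 20 held in all alternatives, while STUB1 lost its call in 12, TRAP1 in 11, HSP90AB1 in 8, STIP1 in 7, HSF1 in 6, and HSPA4 and CRYAB in 1 each. The median of the 41 was -0.27, beside -0.06 over all genes tested. With the mean of all kept probe sets these medians were -0.07 and -0.04. HSPA1A/HSPA1B fell by 1.05 ± 0.0724 on the log2 scale, BAG3 by 0.86 ± 0.118, HSPH1 by 0.75 ± 0.0801 and HSP90AA1 by 0.72 ± 0.0706. HSPB1 fell by 0.50 ± 0.0642, and Di at 48 h showed the same lower level. HSPA13 rose by 1.66 ± 0.125 and HSPA2 fell by 1.87 ± 0.134 without Di. Both comparisons use control at 48 h, so each change at 48 h is also read here beside control at 12 h, with no test. The 3 values of Di at 48 h lay above those of control at 12 h in 24 of the 41 entries, below in 8 and overlapped in 9 (32.4% above and 41.1% below over all genes). Of the 27 entries called higher at 48 h, 21 lay above control at 12 h too. The 6 that overlapped it were HSP90AA1, HSPE1, FKBP4, PTGES3, CCT3 and CCT5. Their Di means at 48 h lay between -0.08 and 0.10 of those of control at 12 h. The 27 were called from these same Di arrays, so their place here is no separate support. The matching share among all genes called higher at 48 h was not computed. DNAJB4 lay 2.09 above control at 12 h, HSPA1A/HSPA1B 1.57, DNAJB1 1.43, HSPH1 1.23 and BAG3 0.93.

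**Figure D4:**
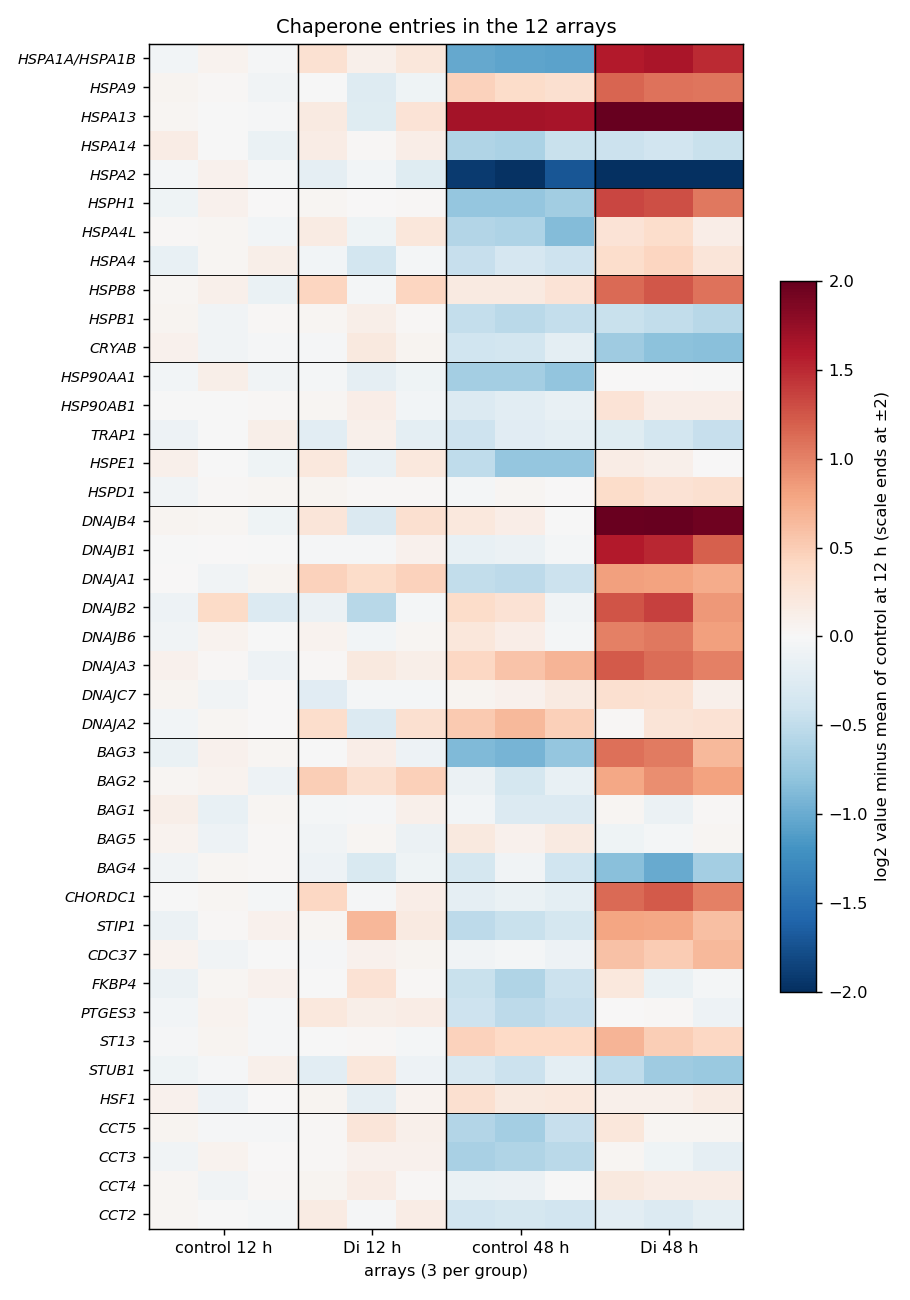
Log2 value of the 41 entries (rows, grouped by role) in the 12 arrays (columns), each minus the gene's mean in control at 12 h; red is higher, blue lower, and colours end at ±2. The 48 h controls are blue for 25 entries without overlap with the 12 h controls, and the 48 h Di arrays turn red in rows such as HSPA1A/HSPA1B, HSPH1, DNAJB4, BAG3 and CHORDC1 but lie below 0 in HSPA2, HSPA14, HSPB1, CRYAB, TRAP1, BAG4, STUB1 and CCT2.

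The change at 48 h differed from that at 12 h by the test of the difference itself in 25 of the 41 entries, 24 upward and 1, CRYAB, downward (19.8% of all genes were called upward and 18.5% downward, 38.3% in all). HSPA1A/HSPA1B differed by 2.41 ± 0.102 (adjusted p = 3.25e-08), HSPH1 by 1.95 ± 0.113 and DNAJA1, already higher at 12 h, by 0.84 ± 0.0892 (adjusted p = 3.13e-05). The call held in all alternatives for 19 of the 25. PTGES3 lost it in 12 of 21, with adjusted p-values up to 0.12. With the mean of all kept probe sets the difference was 0.15 for HSPA4 (adjusted p = 0.288), 0.06 for HSP90AB1 (adjusted p = 0.781) and 0.47 for STIP1 (adjusted p = 0.0625). With arrays centred on the median of the tested genes, HSP90AB1, HSPD1 and DNAJA3 lost the call too. For HSPA8 the difference was 0.14 ± 0.0944 (adjusted p = 0.291).

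Of 67 further chaperone genes, listed from textbook knowledge with earlier results of these data known, 56 were tested. At 48 h, 19 of them were called higher and 12 lower, with a median change of 0.109, where 22.9% of all genes were called higher and 28% lower. At 12 h 2 were higher and 7 lower, where this held for 3.9% and 9.78% of all genes. The counts in either direction lie near those shares of 51% and 13.7%. HSPA6, the strictly inducible HSP70, read 2.49 to 2.52 in the 9 arrays of the other groups, under the floor of 4, and 5.23, 5.88 and 4.89 in Di at 48 h. Against that floor it was at least 2.52-fold higher in Di at 48 h. HSPA6 passed the level filter only through Di at 48 h, so it had to differ, and its place among the 19 is no support. HSPBAP1, an HSP27-binding protein, rose by 1.72 ± 0.13, IER5, an activator of HSF1, by 1.64 ± 0.0782, and the prefoldin subunit PFDN2 by 0.91 ± 0.115. The glucocorticoid-regulated immunophilin FKBP5 fell by 1.18 ± 0.0643, the atypical HSP70 HSPA12A by 1.14 ± 0.0854, HSPB2 by 0.61 ± 0.0748 and the histone-binding J protein DNAJC9 by 0.47 ± 0.069.

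Single arrays bear on some counts. Without replicate 2 of Di at 12 h, 5 entries were called higher at 12 h: DNAJA1, BAG2, HSPA1A/HSPA1B, HSPB8 and DNAJA2. Replicate 3 of Di at 48 h was the lowest of its group in 21 of the 27 entries called higher (77.8%), where it was lowest in 33.9% of all genes called higher.

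Many genes have more than 1 probe set, which gives another reading of the 32 entries called at 48 h. Among 31 other kept probe sets of these genes, 30 had the sign of the chosen one. Of the 31, 24 were also called in that direction and 1, of HSPA4, in the opposite one. How often this held over all genes called was not computed. The entries called at 12 h had 2 other probe sets, with the same sign and 0 called. For the difference between times, 13 of 24 others were called in the chosen direction and 1 in the opposite one. For the controls over time, 23 of 29 had the same sign, 13 were called in it and 2 in the opposite one. At 12 h other probe sets of STIP1 (1.08), CCT2 (0.48), DNAJB4 (0.67), HSP90AB1 (0.76) and BAG4 (1.13) and 1 of HSPA4 (0.93) were called higher although the chosen ones were not.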

How the data were processed

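RNA from 12 HK-2 cultures was hybridised to Affymetrix arrays. The deposited values are log2 expression made by the authors with GCRMA, per the submitters' processing notes (version and settings not given in the sources used here), and were used unchanged, so background correction and normalisation were not redone. Probe sets were named from the platform annotation: of 54675, 41097 had 1 symbol, 1801 several and 11777 none. Probe sets over 4 in at least 3 of 12 arrays were kept and 1 per gene taken (the brightest, cross-hybridising ones last). One mean per group was fitted over all 12 arrays with lmFit and eBayes (limma 3.58.1, R 4.3.3), and p-values were adjusted by Benjamini-Hochberg over 10627 genes and called under 0.05. The fit was tested on simulated data. Every member is named with its values or counted in its role group. Described in full are those called and among the 8 largest changes of a Di comparison, and HSF1, HSPA1A/HSPA1B, HSPA8, HSP90AA1, HSP90AB1, HSPB1, DNAJB1, DNAJA1 and BAG3 whatever their values. Of the further chaperone genes, up to 4 called in each direction with the largest change at 48 h are named. Precision is limited by how many arrays there are. The members and lists were chosen with earlier results of these data known. P-values measure the spread between these cultures. Alternatives covered normalisation, centring, level filter, probe set choice, variance model, arrays fitted, replicate block and leaving out each array. Promoter windows came from RefSeq.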

Additional observations from a re-analysis of the deposited data

Results flagged for a closer look

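For 25 of the 41 entries the log2 change with Di at 48 h differed from that at 12 h by limma's test of the difference (adjusted p under 0.05 over all genes tested, n = 3 arrays per group). The change at 48 h was higher for the HSP70 and HSP110 genes HSPA1A/HSPA1B (by 2.41), HSPH1 (1.95), HSPA4 (0.90), HSPA9 (0.84) and HSPA4L (0.83) and for the small heat shock gene HSPB8 (0.67). Among J proteins the difference was 1.89 for DNAJB4, 1.52 for DNAJB1, 1.21 for DNAJB2, 0.84 for DNAJA1 and for DNAJB6, and 0.45 for DNAJA3. Among BAG genes it was 1.78 for BAG3 and 0.61 for BAG2. Among HSP90 genes and cochaperones it was 1.12 for CHORDC1, 0.86 for STIP1, 0.82 for HSP90AA1, 0.60 for CDC37, 0.35 for HSP90AB1 and 0.28 for PTGES3. Among chaperonin genes it was 0.68 for HSPE1, 0.55 for CCT5, 0.45 for CCT3 and 0.29 for HSPD1. The calls of PTGES3 (in 12 of 21 alternatives), HSP90AB1 (in 2) and HSPA4, STIP1, HSPD1 and DNAJA3 (in 1 each) were lost. For CRYAB the change at 48 h was the lower one (-0.53).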

How the results depend on the processing

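At 48 h, 28 of the 32 calls held in all alternatives in which the gene was tested. There were 22 of these, and 21 for DNAJB2, which was not tested with a floor of 6. With that floor 26 entries were called higher. The exceptions were BAG5 (lost in 13), STUB1 (8), HSPA2 (4) and CCT4 (1). The 5 entries lower at 48 h became 3 with the mean of all kept probe sets and 3 with the replicate block. At 12 h DNAJA1 kept its call throughout and BAG2 lost it with the mean of all kept probe sets. The 2 entries higher at 12 h became 4 with that mean and 4 with centring on the median of the tested genes, an alternative chosen after seeing the data. The 1 entry with a lower difference between times became 2 with trend and robust moderation, 3 with quantile normalisation, 3 with that centring and 2 with the mean of all kept probe sets. With that mean, the control change over time turned from a negative to a positive value for HSPA4 (0.11), HSP90AB1 (0.17) and BAG4 (0.50). The cause was not tested. All genes called at 12 h fell from 1453 to 575 when only the 12 h arrays were fitted, which leaves fewer samples. With that centring the higher share of called genes moved from 28.5% to 54.4% at 12 h and from 41.3% to 51.6% for the controls over time. In deviations from the group means, same-numbered arrays correlated at 0.15, -0.08 and -0.23 at 12 h and 0.0058, 0.09 and -0.26 at 48 h. Arrays of different numbers were not compared and the labels state no pairing, so whether the numbers pair the arrays is not known. The replicate block called 1003 genes at 12 h and 5077 at 48 h, with 27 entries higher at 48 h. Leaving out 1 array at a time gave 745 to 1457 genes at 12 h, with 745 when control replicate 2 at 12 h was left out and 778 when control replicate 3 was. It gave 2 to 5 entries higher at 12 h, 27 to 28 higher and 2 to 6 lower at 48 h, and 1 to 3 with a lower difference. Among 48 h arrays, leaving out Di replicate 2 or control replicate 3 gave the 2 lower, and control replicate 1 gave 3. Leaving out Di replicate 2 at 12 h gave the 3 with a lower difference, and replicate 3 of either 48 h group gave 2.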
